A study of Mus musculus with 20 samples.

Results

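The comparison concerned sorted AgRP neurons of fed mice that lacked Phf6 in these cells, set against those of fed wild-type littermates. Its members are the 5 fed libraries of each genotype, 10 of the 20 libraries of the series, chosen by genotype and feeding labels, and they are described across all expressed genes. Wild-type mice were AgRP-Cre/+; Ai9/+ and conditional knockout (cKO) mice were Phf6 flox/y; AgRP-Cre/+; Ai9/+, all C57BL/6 and 25 to 30 days old. Both genotypes thus carried the Agrp-driven Cre recombinase and the red reporter tdTomato of the Ai9 allele, and the floxed Phf6 copy was the difference between them. The deletion was limited to cells with a history of Agrp-driven Cre, which can include cells that no longer make Agrp. Red neurons were sorted from papain-dissociated hypothalamic tissue punches, with 1000 cells in each sample. Fed mice had food throughout. The other 10 libraries came from mice of the same genotypes that had only water from 5 pm on the day before, and they enter here only where a fed value is set beside a fasted value.

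AgRP neurons of the arcuate nucleus release agouti-related peptide, neuropeptide Y and GABA, and their activity drives feeding. They fire more in hunger, when ghrelin is high and leptin and insulin are low. PHF6 is an X-linked nuclear protein with PHD-like zinc fingers that binds chromatin and has been found with the NuRD remodelling complex and the PAF1 elongation complex. Its mutation in humans causes Börjeson-Forssman-Lehmann syndrome, which combines intellectual disability with obesity. Immediate early genes such as Fos are transcribed within minutes of neuronal activation, through calcium, cyclic AMP and MAP kinase signals that need no new protein.

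The 5 wild-type libraries held 11500753 to 13060922 gene counts and the 5 cKO libraries 10604977 to 13573524, a difference that an exact permutation test did not find (2-sided p = 0.929, adjusted over 3 library measures p = 0.929). The 50 most abundant genes took 13.99 ± 0.0668% of the counts in wild type and 14.9 ± 0.220% in cKO (mean ± SD, n = 5 each, exact permutation p = 0.00794, the smallest that 5 against 5 libraries can give, adjusted p = 0.0238). The leading principal component took 34.1% of the variance and separated the genotypes in all 10 libraries. The second held 9.81%, and cKO libraries 4 and 1 lay at its ends. Without library 4 the test of all genes made 2591 calls and without library 1 2719, against 2952 with all 10 libraries. Replicates of a group varied little, with a biological coefficient of variation of 0.0791 in wild type and 0.0932 in cKO. The labels do not say whether replicates came from separate mice or from 1 cell suspension, so the p-values here measure the spread between these samples, which may be technical. Levels are counts scaled to library size (CPM) and log2 fold changes are cKO over wild type.

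Phf6 (chromosome X, 52912266 to 52956943, plus strand of GRCm38, as are all positions here) was read first, because it checks the labels. Its level was 296, 286, 301, 316 and 300.4 CPM in wild-type libraries 1 to 5 and 82.6, 74.3, 73.6, 81.6 and 69.8 CPM in cKO libraries 1 to 5. Every cKO library lay below every wild-type library (3.93-fold lower, log2 fold change -1.98 ± 0.047 SE, edgeR adjusted p = 7.18e-27, n = 5 each). The counts cover the whole gene, and the sources used here do not give the deleted part, so transcripts that lack it would still be counted. Of the 6 other named and tested genes within 1000000 bases of Phf6, 0 passed the edgeR test, with log2 fold changes from -0.17 to 0.12 and unadjusted p under 0.05 for 0.

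Of 12973 tested genes, 2952 (22.8%) differed between fed genotypes at an edgeR adjusted p under 0.05. Of these, 1518 (11.7%) rose in cKO and 1434 (11.1%) fell. Most changes were small, since the median was 0.33 among genes that rose and -0.30 among genes that fell (log2). At least 1.5-fold rises numbered 394 (3.04%) and falls 252 (1.94%). Large changes were mostly rises, with 165 rises (1.27%) against 90 falls (0.694%) of at least 2-fold and 38 (0.293%) against 7 (0.054%) of at least 4-fold. The 5 values of each genotype did not overlap for 1893 genes (14.6%), of which 1024 (7.89%) were higher and 869 (6.7%) lower in cKO. A fit of all 20 libraries with 4 group means, which takes in the wider spread of the fasted groups, called fewer genes, 777 higher (5.87%) and 504 lower (3.81%), in all 9.68% of 13237.

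**Figure D1:**
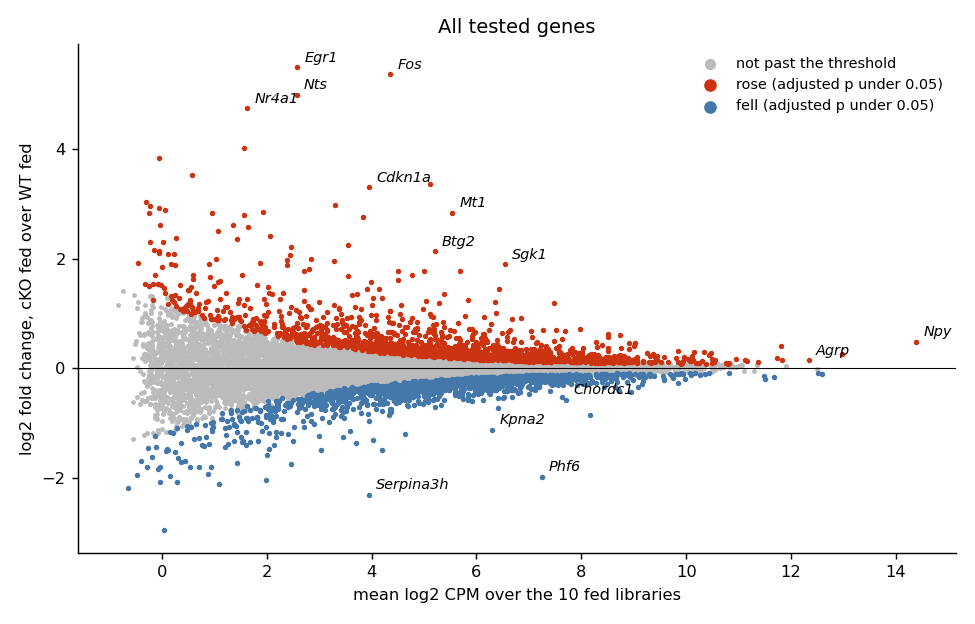
Log2 fold change of each of the 12973 tested genes (vertical axis, cKO fed over WT fed) against its mean log2 CPM over the 10 fed libraries (horizontal axis), coloured by whether it rose, fell or did not pass an edgeR adjusted p of 0.05. The rises reach 5.49, for Egr1, while the labelled fall farthest down is Serpina3h, at -2.31.

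Immediate early transcription factors were the most prominent rise. Fos, a subunit of the AP-1 factor (chromosome 12, 85473890 to 85477273, plus strand), stood at 3.77, 2.097, 2.56, 3.71 and 3.65 CPM in wild-type libraries and 123, 134, 119, 137 and 137 CPM in cKO libraries. The lowest cKO library was above the highest wild-type library many times over, and the fitted change was 41.2-fold (log2 fold change 5.37 ± 0.097 SE, edgeR adjusted p = 1.32e-30, n = 5 each). Egr1, a zinc-finger factor, had 0.377, 0.777, 0.466, 1.35 and 1.39 CPM in wild type and 33.7, 52.7, 36.3, 36.98 and 34.1 CPM in cKO (log2 fold change 5.49 ± 0.20 SE, edgeR adjusted p = 1.20e-21). Nr4a1, an orphan nuclear receptor (chromosome 15, 101254269 to 101274795, plus strand), went from 0.829, 1.01, 0.388, 0.253 and 0.261 CPM to 20.1, 13.3, 15.5, 18.9 and 8.64 CPM (log2 fold change 4.74 ± 0.28 SE, edgeR adjusted p = 2.94e-15). In wild type both genes were near the floor of the assay, with 3 to 13 counts of Nr4a1 and 5 to 16 of Egr1 per library, so the size of their fold change is less certain than its direction. Btg2, an antiproliferative partner of the CCR4-NOT deadenylase (chromosome 1, 134075170 to 134079120, minus strand), started from a clear level of 18.2, 15.5, 18.3, 16.9 and 18.7 CPM and reached 70.7, 87.6, 76.6, 79.6 and 70.2 CPM (4.39-fold, log2 fold change 2.14 ± 0.079 SE, edgeR adjusted p = 2.60e-21). None of these 4 genes overlapped between genotypes.

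Of the list of immediate early transcription factors, 15 of 23 tested members rose, 1 fell and 7 did not pass, with a median of 0.94 against -0.0007 for all tested genes. The called share was 69.6%, against 22.8% of all tested genes. The AP-1 members Fosl2 (2.80 ± 0.27 SE) and Junb (1.19 ± 0.079) rose with Fos, as did the nuclear receptor gene Nr4a3 (1.92 ± 0.24) and Ier2 (1.97 ± 0.23). Crem, which encodes activators and repressors that answer to cyclic AMP, rose from 83.9 ± 4.62 to 158 ± 6.89 CPM (0.91 ± 0.049). Myc (0.94 ± 0.16), Maff (1.44 ± 0.38), Csrnp1 (2.31 ± 0.47) and Klf6 (0.64 ± 0.054) rose as well. The single fall was Klf10, a TGF-beta-inducible zinc-finger gene, from 3.799 ± 1.398 to 1.45 ± 0.420 CPM (-1.38 ± 0.31, edgeR adjusted p = 0.00142), and its genotypes overlapped. Fosl2, Junb, Klf10, Myc, Maff, Csrnp1 and Klf6 are named here after their values were seen.

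**Figure D2:**
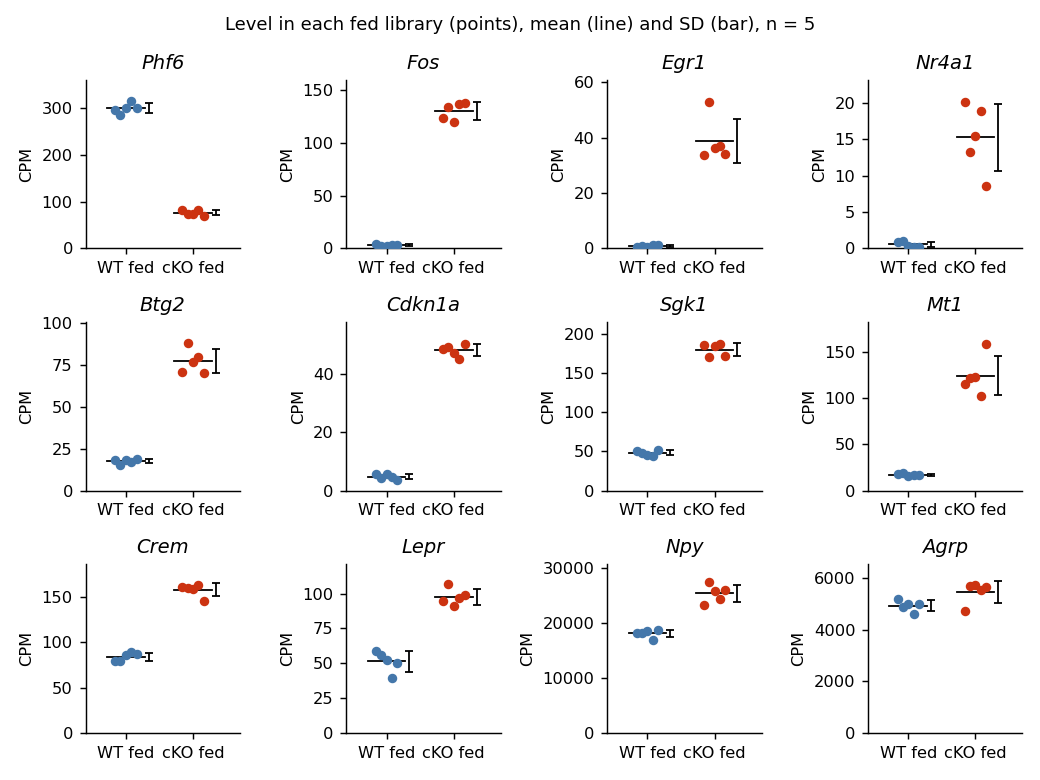
Level in CPM (vertical axes, each from 0) of 12 genes in the 5 wild-type fed and 5 cKO fed libraries, with each library as a point, the mean as a line and the SD as a bar. Apart from Agrp, no gene shown has a cKO library inside the wild-type range.

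The promoters of 4 of the genes that rose are shown because each holds the core of a cyclic AMP response element (CRE), the site of CREB and of the Crem products. Each is the window from 250 bases before to 50 after a RefSeq transcription start (GRCm38.p6), 5′ to 3′ on the gene's strand, with the CRE core TGACG or its reverse complement CGTCA in capitals. They are Fos at chr12:85473640-85473939 (plus strand), Nr4a1 at chr15:101266596-101266895 (plus), Btg2 at chr1:134079106-134079405 (minus) and Nr4a3 at chr4:48045055-48045354 (plus).

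Fos: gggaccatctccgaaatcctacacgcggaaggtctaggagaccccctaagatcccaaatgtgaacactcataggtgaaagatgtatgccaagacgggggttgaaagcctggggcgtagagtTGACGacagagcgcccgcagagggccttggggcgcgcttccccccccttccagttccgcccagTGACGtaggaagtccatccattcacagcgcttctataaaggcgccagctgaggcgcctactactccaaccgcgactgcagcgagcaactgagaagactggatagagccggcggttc

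Nr4a1: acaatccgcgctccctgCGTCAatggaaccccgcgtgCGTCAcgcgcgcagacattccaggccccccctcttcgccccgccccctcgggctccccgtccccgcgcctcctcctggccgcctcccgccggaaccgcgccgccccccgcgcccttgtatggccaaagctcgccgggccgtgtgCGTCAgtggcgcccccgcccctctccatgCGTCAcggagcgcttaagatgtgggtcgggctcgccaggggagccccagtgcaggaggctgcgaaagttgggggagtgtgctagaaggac

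Btg2: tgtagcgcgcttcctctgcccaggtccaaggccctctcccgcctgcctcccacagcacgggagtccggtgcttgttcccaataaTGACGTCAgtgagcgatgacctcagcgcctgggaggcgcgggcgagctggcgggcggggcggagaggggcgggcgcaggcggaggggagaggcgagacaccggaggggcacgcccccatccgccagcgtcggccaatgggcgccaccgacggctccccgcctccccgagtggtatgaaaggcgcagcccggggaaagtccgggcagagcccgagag

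Nr4a3: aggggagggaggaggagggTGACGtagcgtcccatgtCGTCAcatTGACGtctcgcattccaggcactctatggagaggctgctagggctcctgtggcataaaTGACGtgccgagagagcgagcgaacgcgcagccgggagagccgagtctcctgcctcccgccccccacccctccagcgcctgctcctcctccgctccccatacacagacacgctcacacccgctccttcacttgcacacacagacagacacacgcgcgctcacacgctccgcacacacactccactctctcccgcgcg

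The core nearest the start began 66 bases before it in Fos, 40 in Nr4a1, 147 in Nr4a3 and 163 in Btg2, where the sites on the 2 strands make 1 palindrome. RefSeq windows were at hand for 11 of the 15 immediate early genes that rose, and 12 of their 16 windows held the core on either strand. The share among all windows of tested genes was 30.7%. Over all genes that rose it was 33.8%, and over those that fell 28.6%. The longer CRE TGACGTC, which contains the core, was in 7.79% of windows of genes that rose, 4.05% of those that fell and 5.28% of all tested. The FoxO site TGTTTAC was in 4.62%, 1.85% and 2.51% of these windows, and in 6.98% of the windows of genes that rose at least 1.5-fold. The GC-rich SP site GGGCGGG went the other way, with 42.7%, 49.8% and 46%, and 34.9% for rises of at least 1.5-fold. For the AP-1 site TGANTCA the shares were 5.22%, 4.05% and 4.7%, and for the EGR core GCGTGGG 7.33%, 8.44% and 8.47%. Among genes that rose at least 1.5-fold, the CRE core was in 30.4% of windows, no more than in the 30.7% of all tested. In that set the longer CRE was in 6.48%, the AP-1 site in 6.73% and the EGR core in 7.48%. A match in these letters describes the window and is not evidence of binding.

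Effector genes that neurons induce after activity rose as well. Of the 23 tested members, 14 rose, 3 fell and 6 did not pass, with a median of 0.41. The called share was 73.9%, against 22.8% of all tested genes. Cdkn1a, the gene of cell-cycle inhibitor p21 (chromosome 17, 29090976 to 29100727, plus strand), had 5.58, 4.43, 5.59, 4.72 and 3.82 CPM in wild type and 48.6, 49.3, 47.1, 45.02 and 50.2 CPM in cKO. The cKO libraries were tightly grouped and all far above the highest wild-type library, and the fitted rise was 9.904-fold (log2 fold change 3.31 ± 0.11 SE, edgeR adjusted p = 6.21e-23, n = 5 each). Tiparp, an ADP-ribosyltransferase, rose from 27.7 ± 2.72 to 95.2 ± 10.7 CPM (1.78 ± 0.076), and Plk2, a kinase of synaptic downscaling, from 12.3 ± 2.46 to 42.4 ± 8.59 CPM (1.77 ± 0.13). Sik1, a kinase that cyclic AMP induces, rose by 1.37 ± 0.24 and the pseudokinase gene Trib1 by 1.88 ± 0.19 (log2). The falls were Bcor (-0.93 ± 0.24), Rasgrp1 (-0.22 ± 0.044) and Gadd45g (-0.17 ± 0.060), and none of these 3 passed in the fit of 20 libraries (edgeR adjusted p = 0.0826, 0.123 and 0.238). The Gadd45g call was also lost without wild-type library 2, 3 or 5 or without cKO library 1, 2, 4 or 5 (edgeR adjusted p up to 0.115). Sik1, Trib1, Bcor, Rasgrp1 and Gadd45g are named after their values were seen.

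Of the MAP kinase phosphatases and feedback inhibitors, 4 of 12 tested members rose, 0 fell and 8 did not pass (median 0.15). The called share was 33.3%, against 22.8% of all tested genes. The 4 rises were Dusp1 (from 21.4 ± 3.36 to 50.3 ± 3.53 CPM, 1.23 ± 0.091), Dusp10 (1.08 ± 0.13), Spry4 (1.91 ± 0.34) and Dusp6 (0.71 ± 0.22). Dusp1 and Dusp10 act on JNK and p38, whereas Dusp6 and Spry4 restrain the ERK branch. The Dusp6 call was lost without wild-type library 3 or without cKO library 4 (edgeR adjusted p up to 0.0716) and in the fit of 20 libraries (edgeR adjusted p = 0.0612).

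Targets of glucocorticoids and of FoxO factors, which rise with stress hormone and with low insulin, rose without a fall. Of 24 tested members, 14 rose, 0 fell and 10 did not pass, with a median of 0.62. The called share was 58.3%, against 22.8% of all tested genes. The lists share members, so their called shares partly count the same genes. Of the rises here, Cdkn1a and Per1 are also effector genes and Dusp1 is also a MAP kinase phosphatase. Mt1 and Mt2 are also on the metallothionein list, and Cdkn1a and Sesn1 on the p53 list. Sgk1, a kinase that glucocorticoids induce (chromosome 10, 21882184 to 21999903, plus strand), measured 50.7, 47.7, 45.5, 44.4 and 51.9 CPM in wild type and 186, 170.1, 184, 187 and 171 CPM in cKO. Its values did not come near each other between genotypes (3.74-fold, log2 fold change 1.90 ± 0.053 SE, edgeR adjusted p = 6.53e-25, n = 5 each). Mt1, a metal-binding metallothionein (chromosome 8, 94179082 to 94180327, plus strand), measured 18.1, 18.9, 16.2, 16.9 and 16.9 CPM and 115, 121, 123, 102 and 158 CPM (7.13-fold, log2 fold change 2.83 ± 0.087 SE, edgeR adjusted p = 1.00e-23). Mt2 rose in the same way (2.98 ± 0.16), but 73.5% of its exon bases are shared with another gene model and the kit marked no strand. Mt3, the neuronal metallothionein, fell from 174 ± 7.19 to 150.3 ± 7.89 CPM (-0.21 ± 0.045), a call the fit of 20 libraries did not make (edgeR adjusted p = 0.128). Per1 (1.15 ± 0.15), Sesn1 (0.56 ± 0.064) and Irs2, an insulin receptor substrate (0.53 ± 0.087), rose too. The transcription factor gene Zbtb16 (1.77 ± 0.20) and Klf9 (0.97 ± 0.11), both named after their values were seen, rose beside them.

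**Figure D3:**
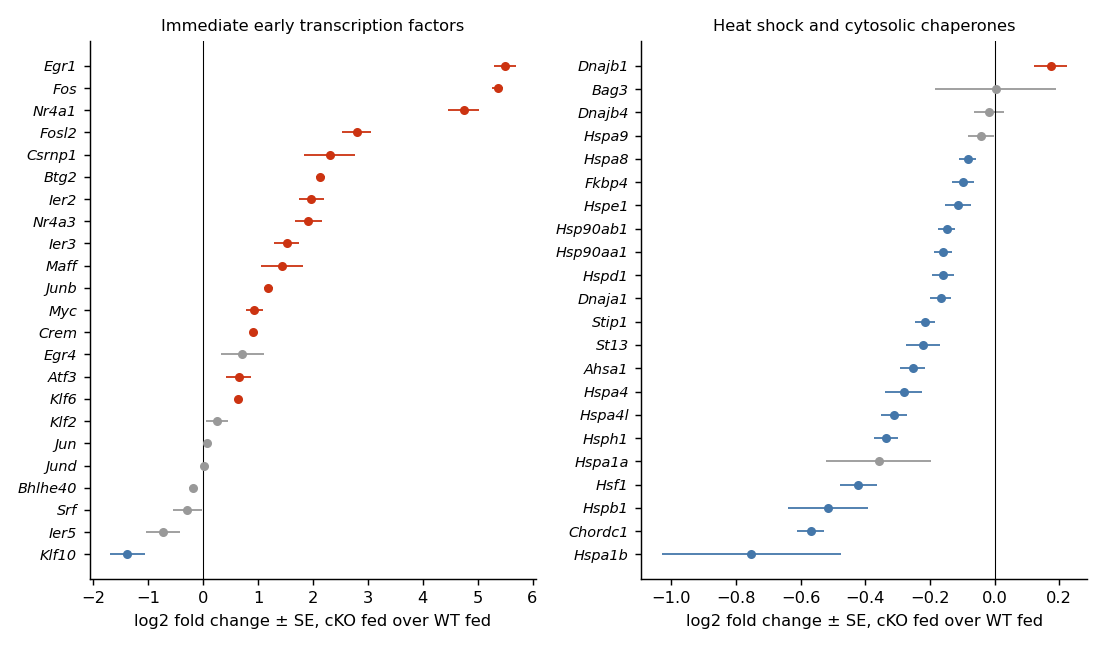
Log2 fold change with its SE (horizontal axes, cKO fed over WT fed) of each tested member of the immediate early list (left, 23 genes) and the heat shock list (right, 22 genes), with grey for members that did not pass an edgeR adjusted p of 0.05. The left panel runs to the right of 0 except for Klf10 and uncalled members, and the right panel lies mostly left of 0 on a much narrower axis.

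The peptides that define these neurons changed little beside this. Npy, for neuropeptide Y, stood at 18100.5, 18109.7, 18472, 16929 and 18796 CPM in wild type and 23256, 27364, 25784, 24418 and 25919 CPM in cKO. The groups were apart, with a rise of 1.402-fold (log2 fold change 0.49 ± 0.029 SE, edgeR adjusted p = 2.96e-15, n = 5 each). Agrp (chromosome 8, 105566698 to 105637393, minus strand) measured 5185, 4886, 5011, 4609 and 5012 CPM in wild type and 4729, 5688, 5740.0, 5533 and 5664 CPM in cKO. The groups overlapped, the fitted change was 1.11-fold (log2 fold change 0.15 ± 0.036 SE, edgeR adjusted p = 0.00260), and in the fit of 20 libraries it did not pass (edgeR adjusted p = 0.288). Of the exon bases of Agrp, 11.3% are shared with other gene models. Over the AgRP identity list, 12 of 22 tested members rose, 4 fell and 6 did not pass (median 0.15). The called share was 72.7%, against 22.8% of all tested genes. In the fit of 20 libraries 8 rose and 1 fell.

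Genes that process and store peptides rose on balance. Of the list, 11 of 23 tested members rose, 5 fell and 7 did not pass (median 0.23), and in the fit of 20 libraries 8 rose and 0 fell. With the fed libraries alone 69.6% were called, against 22.8% of all tested genes. The granins Scg2 (from 3099 ± 29.3 to 4113 ± 238 CPM, 0.41 ± 0.029), Chga (0.53 ± 0.042) and Vgf (0.67 ± 0.062) led the rises. Pam, which amidates peptides (0.27 ± 0.038), and the convertase Pcsk1 (0.31 ± 0.063, with overlapping groups and named after its values were seen) followed at smaller size.

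Other peptide genes moved in both directions. Nts, for neurotensin, had 0.603, 1.24, 0.699, 2.44 and 1.303 CPM in wild type and 24.9, 51.3, 4.96, 25.4 and 90.9 CPM in cKO. All cKO libraries were higher, but they spread widely, and cKO library 5 was the highest (log2 fold change 4.99 ± 0.47 SE, edgeR adjusted p = 3.69e-10, n = 5 each). Nmb, for neuromedin B, rose from 17.6 ± 2.45 to 59.96 ± 14.2 CPM (1.77 ± 0.12, with 20.6% of its exon bases shared with Sec11a), and Pdyn, for dynorphin, from 9.24 ± 1.67 to 15.2 ± 2.66 CPM (0.72 ± 0.14). Sst, for somatostatin, fell from 404 ± 90.7 to 223 ± 95.2 CPM (-0.86 ± 0.15) with overlapping groups, a call that a robust fit did not make (edgeR adjusted p = 0.0715). Adcyap1, for PACAP, fell from 27.3 ± 4.15 to 15.1 ± 2.42 CPM (-0.86 ± 0.12). Of the list, 8 of 18 tested members rose, 4 fell and 6 did not pass (median 0.15). The called share was 66.7%, against 22.8% of all tested genes. Reads of a peptide gene in a pool of sorted cells do not tell a change per cell from a change in the number of cells that make it.

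Receptors for hormones and peptides moved in both directions, with more rises than falls. Those named here are the 5 called members with the smallest p, all of which rose. Lepr, the leptin receptor that restrains these neurons, was at 58.5, 55.8, 52.5, 39.6 and 50.2 CPM in wild type and 94.9, 107, 91.00, 97.1 and 99.2 CPM in cKO (1.903-fold, log2 fold change 0.93 ± 0.071 SE, edgeR adjusted p = 3.03e-12, n = 5 each). Ghsr, the ghrelin receptor, rose from 49.6 ± 4.58 to 76.4 ± 5.55 CPM (0.62 ± 0.067), so that receptors of opposite action on these neurons rose together. Mchr1, for melanin-concentrating hormone, rose from 15.7 ± 1.71 to 34.8 ± 2.43 CPM (1.15 ± 0.096), Prlr, for prolactin, from 14.3 ± 1.300 to 27.5 ± 2.14 CPM (0.94 ± 0.10), and Hcrtr2, for orexin, from 0.855 ± 0.358 to 4.92 ± 2.07 CPM (2.51 ± 0.34). Hcrtr2 had only 3 to 14 counts per wild-type library, so the size of its change is less certain than its direction. Of the hormone and peptide receptors, 12 of 31 tested members rose, 5 fell and 14 did not pass (median 0.20), and 7 rose and 2 fell in the fit of 20 libraries. With the fed libraries alone 54.8% were called, against 22.8% of all tested genes. Without overlap 7 members lay higher in cKO and 4 lower, against 7.89% and 6.7% of all tested genes.

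Downstream of these receptors fewer genes moved. Of the leptin, cytokine and insulin signalling list, 5 of 39 tested members rose, 3 fell and 31 did not pass (median -0.01), a called share of 20.5%, against 22.8% of all genes. Socs3, a STAT3 target that blocks leptin signalling, had 18.1, 14.6, 19.3, 19.9 and 18.1 CPM in wild type and 5.29, 8.08, 9.55, 12.02 and 5.81 CPM in cKO, a fall in every library (log2 fold change -1.14 ± 0.16 SE, edgeR adjusted p = 1.39e-06, n = 5 each). Pik3r1, the regulatory subunit of PI3 kinase (0.62 ± 0.066), and Foxo1 (0.31 ± 0.053) rose.

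Further large rises fell outside these groups. Phactr3, a regulator of protein phosphatase 1, rose from 52.3 ± 3.85 to 143 ± 7.88 CPM (log2 fold change 1.45 ± 0.056 SE, edgeR adjusted p = 1.13e-20). Rrad, a small GTPase that inhibits calcium channels, rose from 53.7 ± 5.702 to 125 ± 7.22 CPM (1.22 ± 0.062). Agt, for angiotensinogen, which astrocytes also make, rose from 5.66 ± 1.82 to 38.03 ± 12.4 CPM (2.75 ± 0.17), and it was the 1 rise among the 5 tested astrocyte markers, of which 7 of 12 were under 1 CPM and which summed to 219 to 322 CPM in wild type and 257 to 283 CPM in cKO. Cd68, a lysosomal gene used as a macrophage marker, rose from 1.25 ± 0.452 to 7.46 ± 3.05 CPM (2.57 ± 0.28), while the microglial genes Tmem119 and C1qa had 0 counts in every fed library, which allows up to 0.221 to 0.283 CPM depending on the library (3 counts, counting error only).

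The largest falls were smaller than the largest rises. Serpina3h, a serine protease inhibitor gene, was at 40.9, 36.97, 29.4, 32.1 and 31.3 CPM in wild type and 7.18, 8.24, 6.77, 6.102 and 6.18 CPM in cKO. Each cKO library lay below every wild-type library (4.95-fold lower, log2 fold change -2.31 ± 0.12 SE, edgeR adjusted p = 4.76e-17, n = 5 each). It belongs to a cluster of closely similar copies, among which reads may be misassigned. Kpna2, an importin alpha of nuclear import, was at 106, 129, 112, 114 and 119.9 CPM and 49.97, 56.3, 54.8, 54.5 and 51.4 CPM (2.17-fold lower, log2 fold change -1.12 ± 0.058 SE, edgeR adjusted p = 8.98e-17). The cyclin gene Ccnd2 fell from 30.7 ± 1.54 to 10.99 ± 1.57 CPM (-1.48 ± 0.11) and the G-protein subunit gene Gnb3 from 20.9 ± 2.73 to 8.07 ± 0.893 CPM (-1.37 ± 0.13). Fstl1, a secreted BMP antagonist, fell from 37.7 ± 2.97 to 16.5 ± 1.59 CPM (-1.19 ± 0.093), and Phlda1 from 25.6 ± 1.95 to 10.3 ± 1.39 CPM (-1.31 ± 0.11, with 33.00% of its exon bases shared with another gene model). Th, tyrosine hydroxylase of dopamine neurons, fell from 14.2 ± 2.53 to 5.18 ± 2.74 CPM (-1.48 ± 0.23). Among abundant genes, Slc25a5, a mitochondrial ADP/ATP carrier, fell from 488 ± 15.9 to 368 ± 5.46 CPM (-0.41 ± 0.034) and the splicing factor gene Srsf7 from 572 ± 24.2 to 422 ± 18.6 CPM (-0.44 ± 0.036). Ctps, for CTP synthase, fell from 110.2 ± 6.49 to 66.4 ± 5.87 CPM (-0.73 ± 0.059).

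Heat shock factors and cytosolic chaperones fell together, by small amounts. Of the list, 1 of 22 tested members rose, 17 fell and 4 did not pass (median -0.19), so 81.8% were called against 22.8% of all tested genes, and 13 of the 22 lay lower in cKO without overlap, as did 6.7% of all tested genes. Chordc1, an HSP90 co-chaperone, had 245, 247, 246, 263 and 267 CPM in wild type and 179, 164, 167, 170.1 and 175 CPM in cKO, with no overlap (log2 fold change -0.57 ± 0.041 SE, edgeR adjusted p = 4.26e-13, n = 5 each). Hsf1, the transcription factor of the heat shock response, fell from 72.96 ± 1.55 to 54.5 ± 1.81 CPM (-0.42 ± 0.057). The chaperone genes Hsph1 (-0.34 ± 0.037), Hspa4l (-0.31 ± 0.041) and Hsp90aa1 (-0.16 ± 0.028) and the HSP70-HSP90 organiser Stip1 (-0.22 ± 0.031) fell as well. The rise was Dnajb1 (0.17 ± 0.051), and without cKO library 1 its edgeR adjusted p reached 0.0678. The fit of 20 libraries called 10 falls and 0 rises on this list. Hsp90aa1 and Dnajb1 are named after their values were seen. The inducible HSP70 genes Hspa1a and Hspa1b, also on the list, are near-identical copies, so the split of reads between them is uncertain.

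Ribosome biogenesis is a process in which PHF6 has been placed through ribosomal RNA transcription. Of its list, 1 of 39 tested members rose, 8 fell and 30 did not pass (median -0.03). Its called share of 23.1% was close to that of all tested genes (22.8%), and the fit of 20 libraries called 4 falls and no rise. Of the 39 members, 8 lay lower in cKO without overlap, against 6.7% of all tested genes. Ubtf, the RNA polymerase I factor UBF, was at 46.5, 44.4, 51.2, 44.8 and 47.9 CPM in wild type and 24.2, 28.4, 30.5, 33.4 and 28.4 CPM in cKO (1.62-fold lower, log2 fold change -0.70 ± 0.082 SE, edgeR adjusted p = 5.45e-08, n = 5 each). The polymerase subunit gene Polr1e (-0.63 ± 0.097) and the nucleolar gene Nolc1 (-0.35 ± 0.055) fell with it. Called shares were below that of all genes for cytosolic ribosomal protein genes, with 1 rise and 3 falls in 77 (5.19%, median -0.01), and for interferon genes, where 2 of 21 fell and 0 rose (9.52%).

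The complexes found with PHF6 were read from 2 lists. Of tested members, 46.7% (NuRD) and 34.8% (PAF1 and elongation) were called, against 22.8% of all tested genes. Of NuRD subunit genes, 2 of 15 tested members rose, 5 fell and 8 did not pass (median -0.07), with falls of Chd4, the remodelling ATPase (from 88.9 ± 6.62 to 66.2 ± 7.19 CPM, -0.42 ± 0.066), Hdac2 (-0.31 ± 0.040) and Gatad2a (-0.51 ± 0.10) and a rise of Rbbp7 (0.21 ± 0.031). Of the PAF1 complex and elongation factors, 4 of 23 tested members rose, 4 fell and 15 did not pass (median -0.07). There the PAF1 subunit gene Ctr9 fell (-0.31 ± 0.059) and the elongation factor gene Ell2 rose (0.67 ± 0.12).

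Lists of channels, receptors and vesicle release had called shares from 17.9% to 36.7%, against 22.8% of all tested genes. Of the potassium channel genes, 10 of 45 tested members rose, 3 fell and 32 did not pass (28.9% called, median 0.08). Kcnv1, a modifier subunit (1.68 ± 0.16), Kcnab1 (1.28 ± 0.13), Kcnf1 (0.73 ± 0.090) and Kcnip4, an auxiliary subunit of A-type channels (from 69.8 ± 6.74 to 100.1 ± 1.93 CPM, 0.52 ± 0.059), rose. Kcnj3, a G-protein-gated inward rectifier, fell (-0.63 ± 0.11, with 31.1% of its exon bases shared with another gene model). Of genes for sodium, calcium and HCN channels, 9 of 30 tested members rose, 2 fell and 19 did not pass (36.7% called). Among ionotropic glutamate receptors and scaffolds, 6 of 39 tested members rose, 1 fell and 32 did not pass (17.9% called), with rises of Gria3 (0.72 ± 0.094), Grik1 (0.94 ± 0.093) and Grin2d (0.68 ± 0.11). Of the GABA genes, 7 of 26 tested members rose, 2 fell and 17 did not pass (34.6% called), with Gabra4 (0.81 ± 0.14) and Gabra2 (0.37 ± 0.058) up and the glycine receptor gene Glra2 down (-0.74 ± 0.13). Among vesicle release genes, 6 of 31 tested members rose, 3 fell and 22 did not pass (29% called). Sv2b (0.99 ± 0.14) and Snap25 (0.29 ± 0.032) rose, while Stx1a (-0.46 ± 0.069) and Rph3a (-0.56 ± 0.095) fell. In the fit of 20 libraries the rises and falls numbered 3 and 1 for sodium, calcium and HCN channels, 3 and 0 for glutamate receptors, 4 and 1 for GABA genes and 4 and 2 for vesicle release, against 9.68% of all genes called there.

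Clock genes moved in part. Called shares were 47.6% for the clock list, 44% for imprinted genes and 33.3% for arcuate factors, against 22.8% of all tested genes. Of the clock list, 8 of 21 tested members rose, 2 fell and 11 did not pass (median 0.16). Arntl, an activator of the clock, fell (-0.56 ± 0.089), while the repressors Per1, Cry2 (0.59 ± 0.10) and Nfil3 (1.16 ± 0.11) rose. The hour of collection is not given in the sources used here. Of the imprinted genes expressed in the hypothalamus, 11 of 25 tested members rose, 0 fell and 14 did not pass (median 0.15), led by Asb4 (from 444 ± 4.68 to 611 ± 29.3 CPM, 0.46 ± 0.034) and Sgce (0.39 ± 0.054). Of the arcuate transcription factors, 3 of 18 tested members rose, 3 fell and 12 did not pass, with Isl1 up (0.29 ± 0.046) and Tbx3, which maintains the identity of arcuate peptide neurons, down (-0.55 ± 0.082).

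Metabolic and protein quality lists had called shares on both sides of the 22.8% of all tested genes. Of oxidative phosphorylation genes, 10 of 74 tested members rose, 1 fell and 63 did not pass (14.9% called). Among proteasome genes, 2 of 35 tested members rose, 4 fell and 29 did not pass (17.1% called). Of autophagy and lysosome genes, 6 of 33 tested members rose, 2 fell and 25 did not pass (24.2% called). Glycolysis had 2 rises and 3 falls in 18 (27.8%), fatty acid oxidation 2 and 4 in 21 (28.6%), and cholesterol synthesis 2 and 4 in 24 (25%). Of the endoplasmic reticulum folding genes, 5 of 38 tested members rose, 8 fell and 25 did not pass (34.2% called), with Creld2 down (-0.51 ± 0.076) and Ppp1r15a, which reverses eIF2alpha phosphorylation, up (0.42 ± 0.10, with overlapping groups). Of the ATF4 and amino acid response, 5 of 27 tested members rose, 3 fell and 19 did not pass (29.6% called), with Atf4 itself up (0.31 ± 0.053) and the serine synthesis gene Psat1 down (-0.62 ± 0.13). Of the p53 and cell-cycle list, 5 of 22 tested members rose, 5 fell and 12 did not pass (45.5% called), so that Cdkn1a, Btg2 and Plk2 rose in a list whose other members moved both ways (median -0.07). The fit of 20 libraries gave 1 and 0 rises and falls for oxidative phosphorylation, 2 and 4 for endoplasmic reticulum folding, 2 and 2 for the ATF4 list and 0 and 0 for glycolysis.

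**Figure D4:**
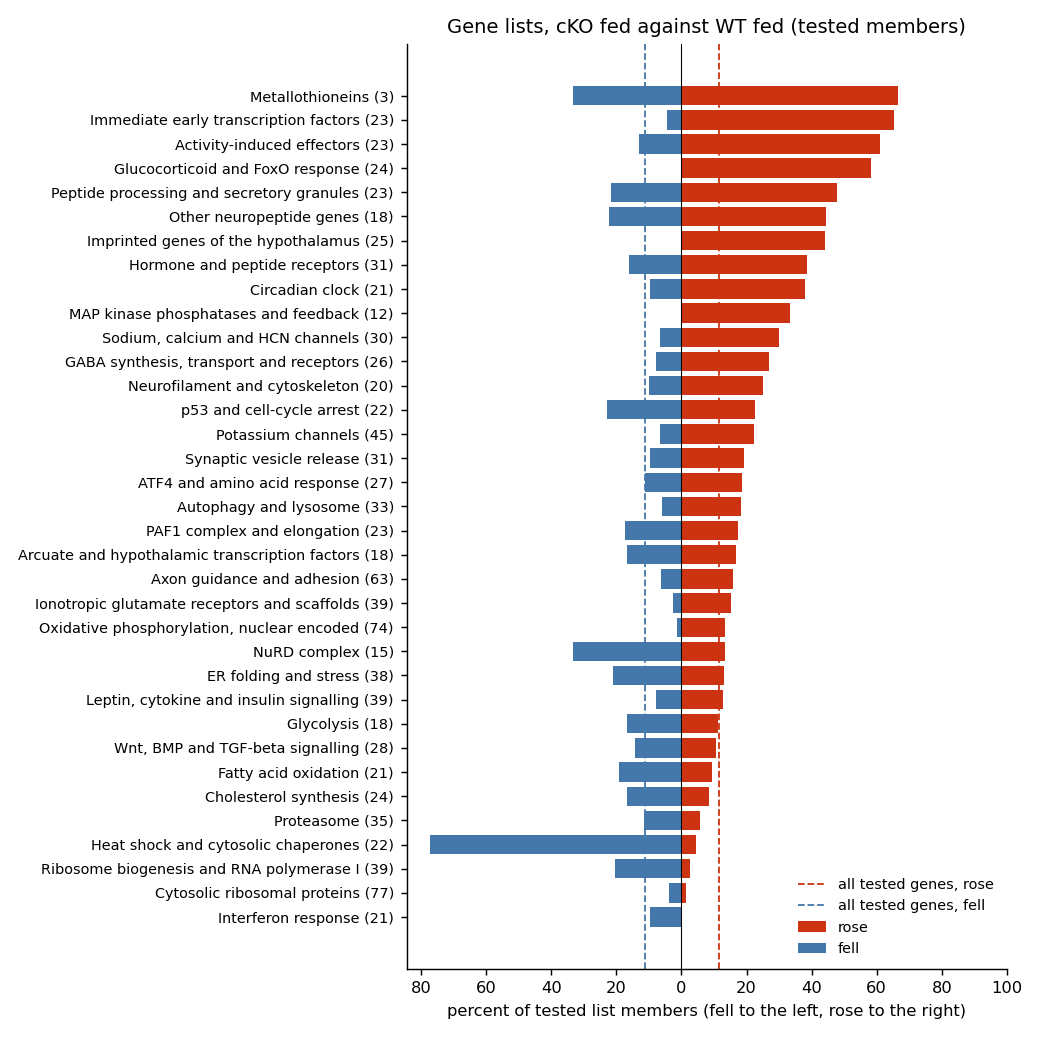
Percent of the tested members of each pathway list that rose (bars to the right) or fell (bars to the left) in fed cKO at an edgeR adjusted p under 0.05, with the number tested in parentheses and dashed lines at the shares of all tested genes, 11.7% and 11.1%. The immediate early, effector, glucocorticoid and metallothionein lists reach farthest to the right, and the heat shock list farthest to the left.

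The cell type was checked against its markers and those of neighbouring cells. The 24 AgRP identity genes in the table summed to 26137 to 28488 CPM in wild type and 32755 to 38039 CPM in cKO, a sum in which Npy is the largest term. Pomc neuron markers summed to 550.5 to 654 CPM in wild type and 535 to 668 CPM in cKO. Markers of other hypothalamic neurons summed to 397 to 577 CPM in wild type and 236 to 439.6 CPM in cKO. Of this last sum, Sst gave 304 to 531 CPM in wild type and 136 to 378 CPM in cKO, with overlapping groups. Of the 9 tested members of this list, 2 rose and 3 fell, and Tac2, Nr5a1 and Fezf1 were at 0 in every fed library. Tanycyte and ependymal markers summed to 66.8 to 87.7 CPM in wild type and 60.7 to 69.1 CPM in cKO, with 7 of 13 under 1 CPM, and oligodendrocyte markers to 98.02 to 115 CPM in wild type and 89.8 to 118 CPM in cKO, with 9 of 13 under 1 CPM. Microglial markers summed to 30.8 to 39.3 CPM in wild type and 41.3 to 47.97 CPM in cKO, with 12 of 14 under 1 CPM and Tmem119 and C1qa at 0. Hemoglobin genes were at 0 in every fed library. Endothelial markers summed to 1602 to 1648 CPM in wild type and 1641 to 1807 CPM in cKO, with 8 of 12 under 1 CPM. This was the largest sum after the AgRP list, and of its 5 tested members 1 rose and 1 fell. Mural and fibroblast markers summed to 6.99 to 10.5 CPM in wild type and 8.78 to 14.97 CPM in cKO. Oligodendrocyte precursor markers summed to 10.4 to 14.1 CPM in wild type and 11.4 to 16.5 CPM in cKO. The tanycyte regulator Rax, also a hypothalamic transcription factor, fell from 1.68 ± 0.472 to 0.387 ± 0.157 CPM (-2.08 ± 0.43), with 27.4% of its exon bases shared with another gene model and 2 to 8 counts per cKO library. Fewer cells of a type and less RNA per cell cannot be told apart in these pools.

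The genes that rose and fell were also described by position and structure. Of 1447 genes that rose and could be placed, 81 (5.600%) lie on the X chromosome, as do 2.09% of those that fell and 3.75% of all tested. Median exon GC content was 47.9% for genes that rose, 49.04% for those that fell and 49.5% for all tested. The X share was 3.71% for genes that rose at least 1.5-fold and 3.73% for those that fell at least 1.5-fold, both near the 3.75% of all tested.

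Whether the fed difference was also present after fasting was read from the fit of all 20 libraries, where the fed and fasted genotype differences share no library. Between fasted genotypes 1517 genes rose (11.5%) and 1170 fell (8.84%), 20.3% in all, or 1232 and 1575 with upper-quartile scaling, and for 2291 genes (17.3%) the genotype difference itself differed between feeding states, being higher in fed mice for 8.44% of tested genes and lower for 8.87%. Without fasted replicates 1 and 2 of each genotype the number that differed between states was 3603. Leaving out wild-type fasted replicate 1 or 2 alone raised the fasted calls from 2687 to 3193 or 3060. Leaving out any other single fasted library lowered them, to between 2030 and 2472. Of 2946 genes called in fed mice and tested in both states, 836 (28.4%) were also called in fasted mice, against 20.3% of all tested genes. In the same direction were 350, which is 11.9% of the 2946 and 13% of the genes called in fasted mice. The rest of the 836, the larger part, were called in the opposite direction. The genotype difference changed with feeding for 40.5% of the genes called in fed mice and for 10.6% of the others, a gap that choosing genes by their fed difference favours.

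Activity and stress genes showed the largest differences between feeding states. Scaled over all 20 libraries, which shifts the fed levels a little from those above, Fos spanned 1.94 to 3.45 CPM (fed wild type), 111 to 128 (fed cKO), 135 to 168 (fasted wild type) and 41.1 to 69.6 (fasted cKO). Of the 4 groups it was lowest in fed wild type, and in fasted mice cKO was below wild type (-1.31 ± 0.11, difference of fed and fasted 6.68 ± 0.18, edgeR adjusted p = 3.72e-21). Cdkn1a spanned 3.53 to 5.14 CPM (fed wild type), 41.5 to 46.7 (fed cKO), 284 to 372 (fasted wild type) and 289 to 415 (fasted cKO), a genotype difference of 0.11 ± 0.085 after fasting (difference 3.20 ± 0.15, edgeR adjusted p = 2.28e-15). Sgk1 spanned 41.05 to 48.04 CPM (fed wild type), 157 to 172 (fed cKO), 269.6 to 357 (fasted wild type) and 263 to 328 (fasted cKO) (difference 2.06 ± 0.10). Mt1 spanned 14.9 to 17.4 CPM (fed wild type), 94.2 to 147 (fed cKO), 396 to 604 (fasted wild type) and 385 to 731 (fasted cKO) (difference 2.73 ± 0.23). In each of these genes the fed cKO level lay between those of fed wild type and fasted wild type, groups that share the fed wild-type libraries with both comparisons. Without fasted replicates 1 and 2 the differences were 6.60 for Fos, 3.26 for Cdkn1a, 2.01 for Sgk1 and 2.94 for Mt1. Kpna2 went the other way, lower in fed cKO and higher in fasted cKO (0.69 ± 0.095, difference -1.80 ± 0.13, edgeR adjusted p = 1.98e-10). Phactr3 rose in fed cKO and was at -0.02 ± 0.079 in fasted cKO (edgeR adjusted p = 0.899).

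Lists showed it as well. Of the 24 glucocorticoid and FoxO genes, 0 rose and 8 fell in fasted cKO (median -0.27), and the genotype difference was higher in fed mice for 15. Of the 22 heat shock genes, 10 rose and 0 fell in fasted cKO (median 0.27), and 16 had a lower genotype difference in fed mice. Of the 23 immediate early genes, 6 rose and 3 fell in fasted cKO, with 10 higher in fed mice by the test of the difference and 2 lower. Over all tested genes, 11.5% rose and 8.84% fell in fasted cKO. The genotype difference was higher in fed mice for 8.44% of all tested genes and lower for 8.87%.

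Some named genes were called in the same direction in both states. Phf6 fell in fasted cKO too (-1.07 ± 0.074), though by less than in fed cKO (difference -0.90 ± 0.10, edgeR adjusted p = 6.40e-07). Scaled over all 20 libraries, its means were 276 CPM (fed wild type), 70.7 (fed cKO), 128 (fasted wild type) and 61.2 (fasted cKO). Its level thus differed between feeding states mainly in wild type, and the fasted cKO mean was not above the fed cKO mean. Rrad rose by 1.22 ± 0.062 in fed and 1.36 ± 0.16 in fasted cKO, and the difference of -0.13 ± 0.22 did not pass (edgeR adjusted p = 0.725). Crem rose in both (0.91 ± 0.049 and 0.77 ± 0.11), as did Nr4a3 (1.92 ± 0.24 and 1.81 ± 0.25). Gnb3 (-1.37 ± 0.13 and -1.71 ± 0.17) and Serpina3h (-2.31 ± 0.12 and -1.94 ± 0.16) fell in both.

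**Figure D5:**
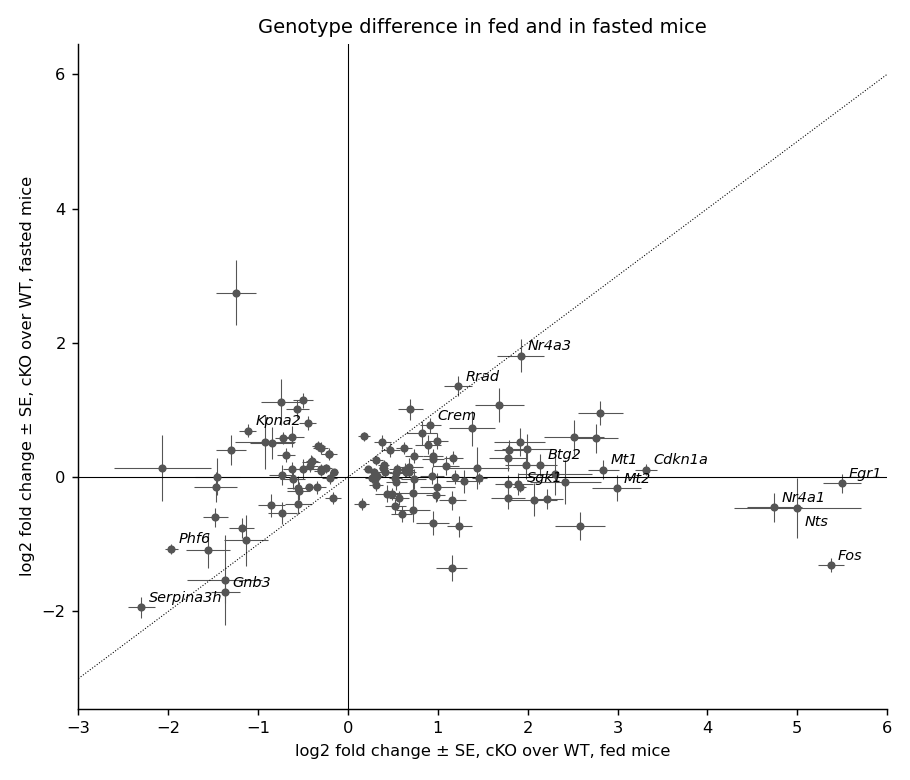
Log2 fold change of cKO over wild type with its SE in fasted mice (vertical axis) against fed mice (horizontal axis), both from the fit of 20 libraries, for the genes named in the text that were called in fed mice, with a dotted line of equal change. Fos, Egr1 and Cdkn1a lie far to the right near or below 0, while Crem, Rrad and Gnb3 lie close to the line.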

How the data were processed

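RNA of sorted AgRP neurons was measured in 20 libraries, of which the 10 fed ones are the subject here. Per the labels' protocols, cDNA was made with a SMART-seq v4 kit (15 cycles) and libraries with Nextera XT, neither of which marks strand. Per the submitters' processing notes, the tools were Trimmomatic 0.36 for trimming, HISAT2 2.1.0 for alignment to GRCm38 (mm10) and featureCounts (Subread 1.6.2) for gene counts. DESeq2 1.20.0 is also listed there. No source used here gives the gene annotation or the strand setting. The deposited table of raw counts (23129 names, 95.2% matched to GENCODE M21) was used as the authors made it, and the deposited normalized table was not used. Another 27 names read as dates and stay unnamed.

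The fed groups were compared with edgeR 4.0.16 in R 4.3.3, by the quasi-likelihood test on the 10 fed libraries, because the fasted groups vary more. TMM normalization and the edgeR filter (minimum count 10, minimum total 15) were used, with Benjamini-Hochberg adjustment over all 12973 tested genes. Rises and falls are calls at an adjusted p under 0.05. Fold changes (log2) are ± SE, and CPM are mean ± SD of 5 libraries after TMM. Fasted and interaction values come from 4 group means over 20 libraries. Library totals were compared by 2-sided exact permutation tests. The steps were tested on simulated counts.

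The gene lists (35 pathways and 11 cell types) and the groups were chosen with earlier results of these data known. Genes were named by rule from Phf6, Agrp and Npy, the 15 largest rises and falls and 10 smallest p of each direction at a mean log2 CPM of at least 2, up to 5 called members of each list, 10 genes of the same direction in fed and fasted mice, 10 of the interaction and tested genes within 1000000 bases of Phf6. Unnamed gene models and genes of the Y chromosome or of X inactivation were not named. The text names a subset, and other genes are marked as named after their values were seen. Exon overlaps above 10% are stated at each gene. Replicate pairs of a group differed beyond counting noise, so none was counted as 1 library deposited more than once. Alternatives were DESeq2 1.42.0 and its size factors, upper-quartile scaling, no filter, 1 CPM in 5 libraries, limma-voom (limma 3.58.1), a robust fit, all 20 libraries, a replicate block, GC and length offsets and each library left out.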

Additional observations from a re-analysis of the deposited data

Results flagged for a closer look

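In 15 of 262 groups of 5 values, 1 library lay far from the others by Dixon's ratio of gap to range (above 0.71 for 5 values). Chance alone flags about 1 in 20 such groups. In wild-type library 5 this held for Sema3a (19.2 CPM, the others 15.8 to 16.01). In wild-type library 2 this held for Cd68 (2.02 CPM, the others 0.904 to 1.22), Grik1 (20.1 CPM, the others 27.01 to 28.3), Mt2 (2.56 CPM, the others 3.54 to 3.88) and Rax (2.49 CPM, the others 1.24 to 1.601). In cKO library 5 this held for Crem (146 CPM, the others 159 to 163), Fosl2 (6.03 CPM, the others 7.86 to 8.08), Gatad2a (20.3 CPM, the others 16.9 to 17.7) and Ppp1r15a (24.4 CPM, the others 31.6 to 34.4). In cKO library 4 this held for Slc15a2 (14.2 CPM, the others 9.91 to 11.1). In cKO library 2 this held for Agt (59.4 CPM, the others 27.8 to 36.6), Egr1 (52.7 CPM, the others 33.7 to 36.98), Ier2 (15.6 CPM, the others 8.03 to 10.2) and Scg2 (4531 CPM, the others 3952 to 4075). In cKO library 1 this held for Agrp (4729 CPM, the others 5533 to 5740.0). cKO library 2 thus had the highest Egr1, Ier2, Agt and Scg2, and cKO library 1 the lowest Agrp.

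The genotype difference was larger or smaller in fed than in fasted mice for 93 of the 128 genes named in the text, by the interaction test of edgeR on 20 libraries at an adjusted p under 0.05. The values that follow are the fed log2 fold change minus the fasted one. Immediate early genes were higher on this measure, as Fos (6.68), Egr1 (5.59) and Nr4a1 (5.20). Stress and effector genes and the phosphatase regulator gene Phactr3 followed, as Cdkn1a (3.20), Sgk1 (2.06), Mt1 (2.73) and Phactr3 (1.48). Peptide and receptor genes of feeding were also higher, as Npy (0.75), Agrp (0.55), Lepr (0.92) and Mchr1 (2.51). For Agrp the fasted genotypes differed by -0.40 ± 0.085 and for Mchr1 by -1.35 ± 0.19, opposite to the fed difference. Negative values were found for Kpna2 (-1.80), Chordc1 (-1.58), Stx1a (-1.25), Ubtf (-1.02) and Creld2 (-1.65), and in fasted mice Chordc1 (1.02 ± 0.13), Stx1a (0.80 ± 0.11) and Creld2 (1.15 ± 0.11) were higher in cKO. Phf6 had -0.90.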

How the results depend on the processing

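The count of fed differences (2952) was 2899 to 3083 under other scalings, filters, tests and GC and length offsets, and 2486 to 2719 with 1 library left out. The exception was the fit of all 20 libraries, with 1281 calls, 777 higher and 504 lower, of which 1243 are among the 2952. It pools the spread of the fasted groups (coefficient of variation 0.178 and 0.141). Of 128 genes named in the text and called in fed mice, 121 also passed there and 125 passed with each library left out, and Sst missed the threshold in a robust fit. No named gene changed direction. Without fasted replicates 1 and 2, 3640 fasted differences (2687 with them) and 3603 differences between states (2291 with them) were called, and with 1 library left out 2030 to 3193 and 1941 to 2700. The cause was not tested.

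Replicate numbers are shared between groups, and between the fed genotypes they showed no pairing. Deviations of same-numbered fed libraries correlated at -0.0350 to 0.0381, and in 1 of 5 numbers the same-numbered library was the best match. The fasted groups were not checked in this way. With a replicate block 2827 genes were called in fed mice, and 2856 with GC and length offsets added. A replicate block within feeding state gave 3202 fasted differences (2687 without it). It gave 2802 differences between states (2291 without it). Counts of 3 or fewer per library, 0.221 to 0.283 CPM, set the lowest level that could be read, and reads copied by PCR were counted with no molecular identifiers to tell the copies apart. Library preparation, sorting day and collection hour are not given in the labels, so their part in the genotype difference was not tested.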

Other observations

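Several genes with large fed differences belong to none of the groups described so far. Nfkbiz, an inducible nuclear regulator of NF-kappa-B, rose from 2.52 ± 0.646 to 11.7 ± 2.25 CPM (log2 fold change 2.21 ± 0.20 SE, edgeR adjusted p = 1.16e-10, n = 5 each). Slc15a2, a peptide and histidine transporter, rose from 2.67 ± 1.45 to 11.2 ± 1.76 CPM (2.06 ± 0.23), Hhip, which binds Hedgehog ligands, from 3.52 ± 0.552 to 14.02 ± 1.25 CPM (1.99 ± 0.16), and Acot12, an acetyl-CoA thioesterase, from 1.93 ± 0.844 to 10.4 ± 5.97 CPM (2.42 ± 0.32). Among the falls, the transcription factor gene Klf14 went from 6.78 ± 0.671 to 2.31 ± 0.881 CPM (-1.57 ± 0.23), the collagen chaperone gene Serpinh1 from 6.81 ± 1.59 to 2.46 ± 0.956 CPM (-1.46 ± 0.24) and Tnfrsf11b, for the decoy receptor osteoprotegerin, from 17.2 ± 2.16 to 7.18 ± 2.64 CPM (-1.25 ± 0.17). All 7 genes had no overlap between fed genotypes.

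Lists on wiring and structure had called shares near the 22.8% of all tested genes or moved in both directions. Of the axon guidance and adhesion genes, 10 of 63 tested members rose, 4 fell and 49 did not pass (median 0.01), with Sema3a (0.99 ± 0.095) and Efnb2 (0.89 ± 0.13) among the rises. Of the Wnt, BMP and TGF-beta genes, 3 of 28 tested members rose, 4 fell and 21 did not pass, with Tgfbr1 (-0.74 ± 0.14) and Wnt4 (-0.75 ± 0.15) down and Smad1 (0.53 ± 0.078) and Id2 (0.52 ± 0.10) up. Of the neurofilament and cytoskeleton genes, 5 of 20 tested members rose, 2 fell and 13 did not pass, with Stmn2 (0.39 ± 0.041) up and Tubb3 (-0.25 ± 0.039) down.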
